A study of Capsicum annuum and Capsicum chinense and Capsicum annuum var. glabriusculum with 33 samples.

Results

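Gene expression in the roots of pepper (Capsicum) was set against that in stems and leaves, the vegetative organs of the shoot, in 6 of the 33 libraries of a study of pepper organs and fruit. The 6 libraries were chosen by their labelled organ and line: root, stem and leaf of Zunla 1, an inbred line of C. annuum, and root, stem and leaf of HYL, a line of C. chinense. No flower or fruit library entered the contrast. Poly(A) RNA was sequenced, and the table covers 31426 predicted genes in RPKM, a read count scaled to the length of the gene model and the size of the library.

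Zunla 1 plants were grown in a greenhouse, and their roots, stems and leaves were taken at full bloom. The labels call the roots and stems developing and the leaves mature. The HYL organs came from seedlings, so line, species and plant age cannot be told apart in this contrast. Each line and organ was 1 library, and the labels do not say how many plants it holds. The main fits of each gene below remove the mean difference between the lines. Their p-values therefore rest on how far the organ differences vary from line to line. Where stem and leaf count together as shoot, they also rest on the difference between stem and leaf. No p-value here measures the spread between plants. A leaf library of chiltepin, the wild C. annuum var. glabriusculum, was a mix of leaves of 4 growth stages and served as an outside value. It had no root or stem beside it.

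Roots anchor the plant and take up water and mineral nutrients, and they carry out little or no photosynthesis. Leaves are the main site of photosynthesis, and stems support the shoot and carry water and sugars between root and leaf. Contrasts of root and leaf RNA in land plants are therefore known for genes of uptake and transport on one side and of chloroplasts on the other. None of the 31426 gene IDs (0) could be paired with a gene name in the reference table used here, so the genes below carry no role, and the organ labels could not be set against marker genes. In RNA of whole organs, more cells of a type and more RNA per cell cannot be told apart.

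The read totals of the 6 libraries, recovered from the smallest steps between values, lay between 12691809 and 14214777. At that depth, 3 reads on a gene of 1 kb came to between 0.211 and 0.236 RPKM. The Zunla 1 root held 19416 genes at 1 RPKM or more and the HYL root 19317. The stems held 18773 (Zunla 1) and 19037 (HYL), and the leaves 19425 (Zunla 1) and 18331 (HYL). The root values fell inside the range of the shoot values, and the difference of 475 genes between the means did not pass an exact two-sided permutation test (p = 0.40). The 10 most abundant genes took 10.1% ± 1.04 (SD, n = 2) of summed RPKM in root and 10.7% ± 0.826 (SD, n = 4) in shoot (exact permutation p = 0.533). With 2 libraries against 4 there are 15 splits, and 1 split is a share of 0.0667. The two-sided p counts 1 tail 2 times, so its lowest possible value lies above 0.0667.

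Between root and shoot, 1412 of 21397 genes tested differed, 786 higher in root and 626 lower in root. Those higher in root had a median of 18.5 RPKM in root and 0.606 RPKM in shoot. Those lower in root had a median of 3.34 RPKM in root and 49.05 RPKM in shoot. The median difference on the log2(RPKM + 1) scale was 2.83 for the first list and -3.07 for the second, against 0.04 over all genes tested. The fit was made with limma with line as a block, for genes that reached 1 RPKM in 2 or more of the 6 libraries, and genes with an adjusted p under 0.05 were called. The genes higher in root were 3.67% of all tested and those lower in root 2.93%. They are called root-high and root-low genes below.

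These counts rested on which libraries were in the fit. Without the Zunla 1 root, limma called 0 genes, with 1888 at an unadjusted p under 0.05, and without the HYL root it called 42. The filter then left 1080 of the 1412 genes in the test. With that filter met in 1 library, a setting added after these counts were seen, all 1412 were tested and 0 (with 2407 at an unadjusted p under 0.05) and 359 genes were called. Without 1 shoot library the count was 667 (Zunla 1 stem), 2151 (HYL stem), 487 (Zunla 1 leaf) and 925 (HYL leaf). With organ as a term of 3 levels in place of 1 shoot arm, 2744 genes were called. In each of these fits every one of the 1412 genes that was tested kept its direction. The fits reuse libraries that had chosen these genes, so the directions were largely fixed by the choice. Organ as a term gives each gene the same difference as the main fit, so no direction could change there.

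**Figure D1:**
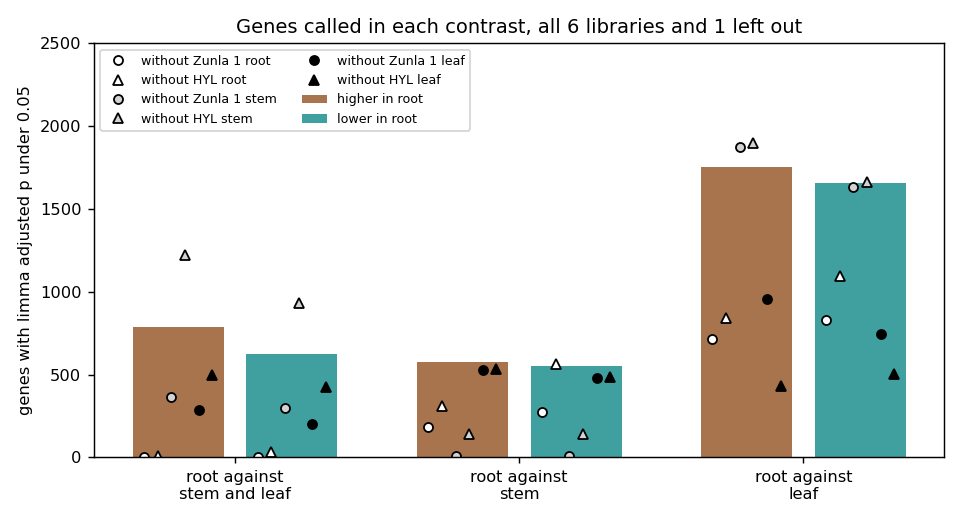
Number of genes called (limma adjusted p under 0.05, vertical axis) for root against stem and leaf together, against stem and against leaf. Bars show the fit of all 6 libraries, brown for higher and green for lower in root, and points show the fits with 1 library left out; for the contrast with stem and leaf together the points run from 0 genes without the Zunla 1 root to 1221 higher and 930 lower without the HYL stem.

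Most of the called differences were large. Small differences could not reach a call with these libraries, so the sizes are partly fixed by the choice. Of the 786 root-high genes, 632 differed by at least 4-fold, 188 by at least 16-fold and 47 by at least 64-fold in RPKM + 1. Of the 626 root-low genes, 551 differed by at least 4-fold, 173 by at least 16-fold and 24 by at least 64-fold. The smallest difference that was called was 1.25 on the log2 scale for a root-high and 1.24 for a root-low gene, where the median standard error over all genes tested was 0.41. In all, 4820 genes had an unadjusted p under 0.05.

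Both roots lay above all 4 shoot libraries for 3331 genes (15.6% of those tested) and below all 4 for 3055 (14.3%). Of the root-high genes, 768 had no overlap of root and shoot, and of the root-low genes 615. They had been called from the same 6 libraries, so this lack of overlap is largely fixed by the choice. Read from the closest values, the lower root was at least 64-fold above the highest shoot library, in RPKM + 1, for 15 genes. The lowest shoot library was at least 64-fold above the higher root for 3 genes. The difference between these counts was not tested.

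Many root-high genes were on in root and near the floor in shoot. Under 1 RPKM in all 4 shoot libraries were 332 of the 786 root-high genes. These had passed the filter through the roots alone, so they had to differ and their number is no support for the contrast. Among them, 72 genes were at 10 RPKM or more in both roots. In the other direction, 143 of the 626 root-low genes were under 1 RPKM in both roots. These had passed the filter through the shoot libraries alone, so their number is no support for the contrast either.

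The largest rise was that of Capana04g001405, with a recovered model length of 984 bases. It stood at 2193 RPKM in the Zunla 1 root and 1733 RPKM in the HYL root. The stems gave 0 (Zunla 1) and 0.449 RPKM (HYL), and the leaves 0.480 (Zunla 1) and 0 RPKM (HYL). Both roots were high and each shoot library was near the floor, with no overlap. The difference was 10.65 on the log2(RPKM + 1) scale (SE 0.36, limma adjusted p = 0.0013). The chiltepin leaf was also at 0, and among the other libraries the highest value of Capana04g001405 was 24.1 RPKM, in ZJ7 fruit 5 days after breaker. Breaker is the point of ripening when colour first shows.

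Capana12g000266, the second largest rise, had a model of 1368 bases. It stood at 675 RPKM in the Zunla 1 root and 566 RPKM in the HYL root, and the HYL stem, at 0.269 RPKM, was the only one of the 4 shoot libraries above 0. Root and shoot did not overlap, and the difference was 9.19 (SE 0.35, limma adjusted p = 0.00135). The chiltepin leaf was at 0. The highest value of Capana12g000266 elsewhere was 13.6 RPKM, in the Zunla 1 bud. When a root was left out, both of these genes missed the filter of 2 libraries and had no test. With the filter met in 1 library, both had a limma adjusted p of 0.0617 without the Zunla 1 root and stayed under 0.05 without the HYL root.

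The largest fall was that of Capana03g004129, with a model of 441 bases. It stood at 1.75 RPKM in the Zunla 1 root and 6.90 RPKM in the HYL root. The stems gave 5100 (Zunla 1) and 5870 RPKM (HYL), and the leaves 17250 (Zunla 1) and 8312 RPKM (HYL). Every shoot library was far above both roots, and the leaves were above the stems in each line. The difference for Capana03g004129 was -10.76 (SE 0.70, limma adjusted p = 0.00308). Without the Zunla 1 root the limma adjusted p was 0.143, at a difference of -9.79. The chiltepin leaf, outside the fit, stood at 15380 RPKM.

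Capana01g002891, the second largest fall, had a model of 372 bases. It stood at 0.378 RPKM in the Zunla 1 root and at 0 in the HYL root. The stems gave 255.4 (Zunla 1) and 324 RPKM (HYL), and the leaves 1587 (Zunla 1) and 1937 RPKM (HYL). The roots were at the floor, and the leaves again stood above the stems in both lines. The difference was -9.24 (SE 0.95, limma adjusted p = 0.00676). The adjusted p of Capana01g002891 was 0.167 without the Zunla 1 root and 0.118 without the HYL root. The chiltepin leaf stood at 850 RPKM and, of the libraries of buds, flowers and fruit, the Zunla 1 flower was highest at 155.5 RPKM.

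**Figure D2:**
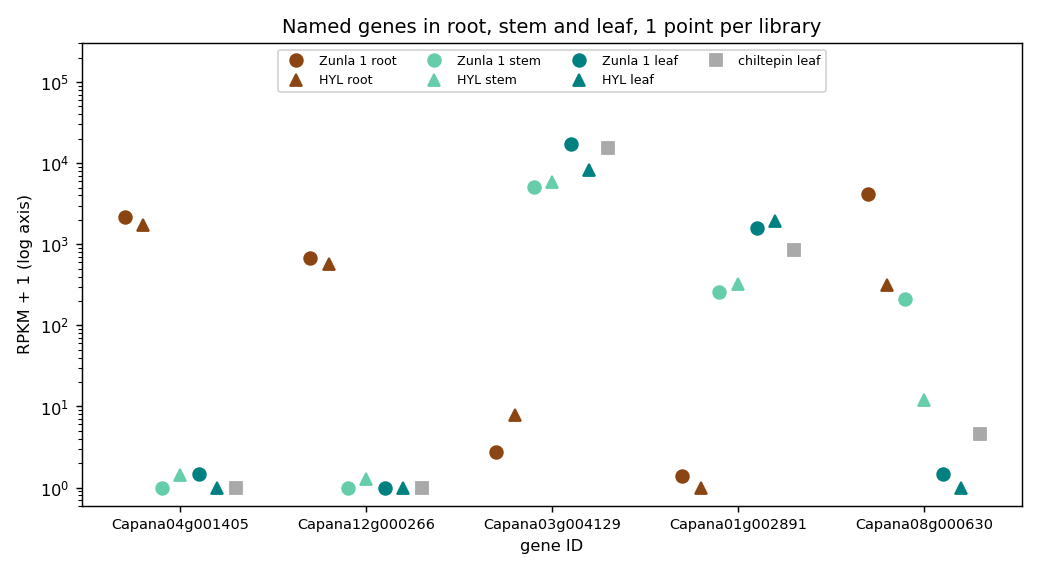
RPKM + 1 (vertical log axis) of the 5 named genes (horizontal axis) with 1 point per library, brown for root, light green for stem, dark green for leaf and grey for chiltepin leaf, circles for Zunla 1 and triangles for HYL. Capana04g001405 and Capana12g000266 are high in both roots and near the floor elsewhere, Capana03g004129 and Capana01g002891 show the reverse, and Capana08g000630 is in Zunla 1 stem (213 RPKM) close to HYL root (312 RPKM).

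Set against each shoot organ alone, root differed from stem in 1127 genes and from leaf in 3408. Against stem, 576 genes (2.69% of those tested) were higher in root and 551 (2.58%) lower. Against leaf, 1754 genes (8.2%) were higher in root and 1654 (7.73%) lower. The median standard error was 0.40 on the log2 scale in both contrasts, and 1827 genes differed by at least 4-fold from stem and 3080 from leaf. Among called genes, the median difference against stem was 3.06 for the higher and -3.02 for the lower genes, and against leaf 2.53 and -2.49. The 2 contrasts share the root libraries, so their results are given side by side and no overlap between them is read.

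The counts against single organs also moved with 1 library. Against stem, limma called 12 genes without the Zunla 1 stem, 284 without the HYL stem, 455 without the Zunla 1 root and 872 without the HYL root. Against leaf it called 930 without the HYL leaf, 1700 without the Zunla 1 leaf, 1549 without the Zunla 1 root and 1940 without the HYL root. A fit of 5 libraries leaves 1 residual degree of freedom here. With the filter met in 1 library, limma called 0 genes in both contrasts without either root, with between 2514 and 4715 genes at an unadjusted p under 0.05. Without line as a block, 343 genes were called against stem and 1456 against leaf.

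Capana08g000630, with a model of 324 bases, was the second largest rise against leaf. It stood at 4125 RPKM in the Zunla 1 root and 312 RPKM in the HYL root. The stems gave 213 (Zunla 1) and 10.9 RPKM (HYL), and the leaves 0.486 (Zunla 1) and 0 RPKM (HYL). In each line its level ran from root over stem to leaf, and Zunla 1 was the higher line in root and stem. Both leaves were near the floor, so no difference between the lines can be read there. The difference of Capana08g000630 was 9.87 against leaf (SE 0.87, limma adjusted p = 0.00437) and 4.50 against stem (SE 0.87, limma adjusted p = 0.0492). Against both together it was 7.18, which did not pass (SE 1.999, limma adjusted p = 0.0966).

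Stem and leaf were set side by side for the called genes, with no test. The root-low genes had a median stem minus leaf difference of -0.49 in Zunla 1 and -0.61 in HYL, where all genes tested had -0.07 and 0. The root-high genes had 0 in Zunla 1 and 0.20 in HYL. The median RPKM of the root-low genes was 34.5 in the Zunla 1 stem and 34.8 in the HYL stem, and 53.1 and 59.6 in the leaves. As shares of summed RPKM, these genes took 8.40% and 8.73% of the stem libraries, 13.8% and 14.1% of the leaf libraries, and 0.772% and 1.10% of the roots. The root-high genes took 7.56% of the Zunla 1 root and 7.15% of the HYL root, and between 0.425% and 0.682% of the shoot libraries. These levels include the libraries that chose the genes and are a description.

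The root against shoot difference was compared between the lines, since a species and an age of plant separate them. The interaction of line and root called 0 of 21397 genes (0% of those tested) with limma, with a lowest adjusted p of 1.00 and 592 genes (2.77%) at an unadjusted p under 0.05. The median standard error of that difference was 0.82 on the log2 scale. Each line had 1 root library, so no root was replicated in that fit. Its spread came only from stem against leaf within each line, with 2 residual degrees of freedom. Differences between the lines far above 0.82 were also not called, as for Capana00g000720 at -6.33 (SE 0.995). The 0 calls therefore do not show that the lines agree. The median root minus shoot difference of the root-high genes was 2.98 in Zunla 1 and 2.70 in HYL, and that of the root-low genes -3.15 and -2.93. Of the root-low genes, 39.9% were under 1 RPKM in the Zunla 1 root and 28.6% in the HYL root.

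**Figure D3:**
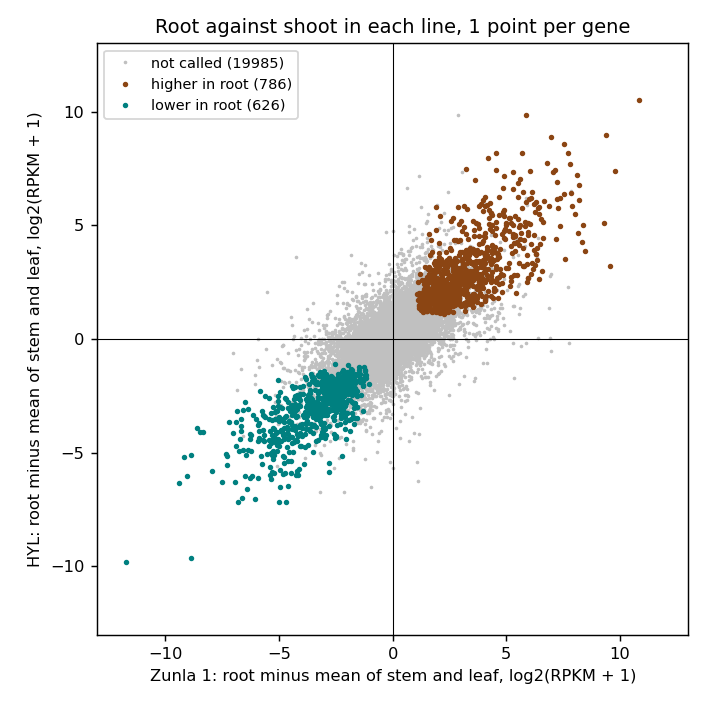
Root minus the mean of stem and leaf on the log2(RPKM + 1) scale in Zunla 1 (horizontal axis) and HYL (vertical axis), 1 point per gene. The 786 genes higher in root (brown) and the 626 lower in root (green) were chosen from both lines together and lie in the upper right and lower left; the other genes tested are grey.

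Genes were also chosen in 1 line and read in the other, which shares no library with it. Here and below, the shares with the same sign have no share over all genes beside them. In Zunla 1, 1093 genes were at least 4-fold higher in root than in both stem and leaf. The choice was not limited to the genes tested in the contrast, of which 999 met it. The shares over all genes tested thus cover a narrower set than the chosen higher genes. In HYL, 93.0% of them had the same sign and 41.3% were again at least 4-fold above both organs, where 3.51% of all genes tested were. In Zunla 1, 855 genes were at least 4-fold lower in root than in both organs, and in HYL 93.8% of them had the same sign and 44.8% were again at least 4-fold lower, against 2.74% of all tested. The sizes were smaller in the line that did not choose the genes, with medians of 3.26 in Zunla 1 and 2.23 in HYL for the higher genes, and -3.33 and -2.38 for the lower ones.

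Chosen in HYL and read in Zunla 1, 799 genes were higher in root, of which 94.5% kept their sign and 56.4% were again at least 4-fold higher. Of the genes tested in the contrast, 751 met this choice in HYL. Of 587 lower genes, 96.9% kept their sign and 65.2% were again at least 4-fold lower. Over all genes tested, 4.67% were at least 4-fold higher and 4.00% at least 4-fold lower in Zunla 1 root than in both organs. Across all 21397 genes, the root minus shoot differences of the lines had a Pearson's r of 0.76 and a Spearman's rho of 0.70. This is across genes of the same 6 libraries, and genes are not independent replicates.

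The chiltepin leaf, which took no part in the choice, was read next. Of the 786 root-high genes, 547 (69.6%) were under 1 RPKM in it, against 18.5% of all genes tested, and 765 (97.3%) were below both roots, against 60.4%. Of the 626 root-low genes, 571 (91.2%) were above both roots in it, against 23.4% of all tested. The shares below or above both roots compare with roots that had chosen the genes, so a part of them is fixed by the choice. Of the root-high genes, 332 were under 1 RPKM in all 4 shoot libraries and had passed the filter through the roots alone. The share under 1 RPKM in chiltepin leaf is therefore also partly fixed. It was 77.8% with no filter and 60.5% with a filter of 5 RPKM. The root-low genes had a median of 86.7 RPKM in chiltepin leaf and took 41.2% of its summed RPKM. They stood a median of 0.77 higher on the log2 scale than in the mean of the Zunla 1 and HYL leaves, where all genes tested stood at -0.53 and the root-high genes at 0. The chiltepin leaf library had 26855552 reads, more than each of the 6 libraries, and its 10 most abundant genes took 17.5% of summed RPKM. The part of these in the difference was not tested.

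Buds, flowers and fruit were the remaining organs. Over the 25 libraries of these organs with a group, the median RPKM of the root-high genes lay between 0.121 and 0.671, with a median library at 0.304, far under the 19.0 RPKM of the Zunla 1 root and 15.1 RPKM of the HYL root. That of the root-low genes lay between 5.52 and 31.6 RPKM, between their root and their leaf levels in all 25. Of the root-high genes, 156 (19.8%) were under 1 RPKM in every library with a group other than the roots, against 205 (0.958%) of all tested, which include the 156. Such genes can pass the filter through the roots alone, so they had to be higher in root, and both counts are a description that supports nothing. With a filter of 5 RPKM the share of the root-high genes was 11.2%. Of the 72 genes that were at 10 RPKM or more in both roots and under 1 RPKM in the shoot, between 4 (chiltepin leaf) and 17 (G16 mature green fruit) reached 1 RPKM in any such library.

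Not all root-high genes had their highest level in root. For 173 of the 786 (22.0%), a library outside the contrast was at or above the mean of the roots. It was a fruit library for 131 of them, a bud or flower library for 38 and the chiltepin leaf for 4. Over all genes tested, 18459 (86.3%) had a library outside the contrast at or above the mean of the roots. The root-high genes were chosen by their roots, so a part of that gap is fixed by the choice. With 22 fruit libraries, 3 of buds and flowers and 1 of chiltepin leaf, the organs had unequal chances to hold the highest value.

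Fruit after breaker was set against green fruit for the same genes in Zunla 1, from libraries that the contrast did not use. Of the 626 root-low genes, 236 (37.7%) were at least 2-fold lower in fruit after breaker, against 21.2% of all genes tested and 17.7% of the root-high genes. At least 2-fold higher were 13.7% of the root-low genes, 10.7% of the root-high genes and 7.38% of all tested. The median difference was -0.61 for the root-low genes, -0.03 for the root-high genes and -0.27 for all tested. Many root-high genes were near the floor in both, where no 2-fold difference in RPKM + 1 can be seen. The 3 libraries after breaker were unlike each other. The median of the root-low genes was 23.4 RPKM at 3 days, 6.31 RPKM at 5 days and 7.86 RPKM at 7 days. In the 5 green fruit libraries it lay between 10.1 RPKM, in mature green fruit, and 24.8 RPKM.

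**Figure D4:**
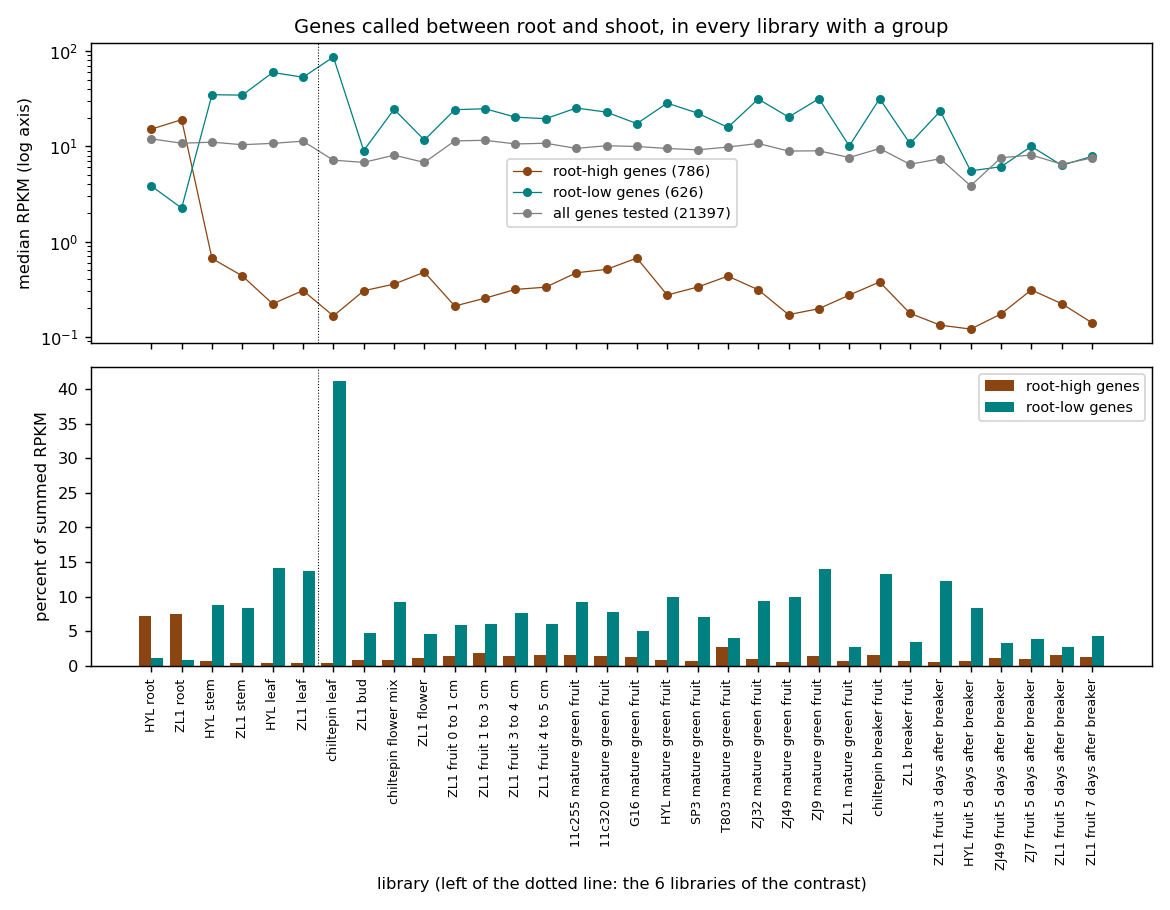
Median RPKM (upper panel, log axis) and percent of summed RPKM (lower panel) of root-high genes (brown), root-low genes (green) and, in the upper panel, all genes tested (grey) in each of 32 libraries (horizontal axis). The 6 libraries left of the dotted line chose the genes; right of it the median of the root-high genes stays under 1 RPKM, while between 220 and 356 of the 786 genes reach 1 RPKM in each library, and the root-low genes take 41.2% of the summed RPKM of chiltepin leaf.

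The positions of the genes in the numbering of the IDs were the last property read, since the IDs come as a prefix and a running number. Of the 786 root-high genes, 139 (17.7%) had a gene with the next or the previous number in the same list, where 3.99% of all genes tested had such a neighbour among them. Of the 626 root-low genes, 53 (8.47%) did, against 3.81% of all tested. The root-high genes formed 54 runs of 2, 9 of 3 and 1 of 4 consecutive numbers, and the root-low genes 22 runs of 2 and 3 runs of 3. Near-identical copies beside each other could share reads, which the table does not show, so neighbours are not independent genes.

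By prefix, the share of tested genes that was root-high lay between 2.24% and 4.81%, and the share that was root-low between 2.36% and 3.90%. Over all prefixes the shares were 3.67% and 2.93%. A model length could be recovered for 85.8% of the root-high genes, with a median of 1014 bases, for 99.8% of the root-low genes, with a median of 867 bases, and for 98.4% of all tested, with a median of 1008 bases. Recovery needs values above 0 in enough libraries, and many root-high genes were at 0 in most.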

How the data were processed

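Poly(A) RNA of 33 libraries was sequenced with an Illumina instrument, per the labels' protocols. The authors deposited RPKM per gene and library. The names of the aligner, counter, build and annotation were not given in the sources used here. Read totals and model lengths were recovered from the steps between RPKM values, with lengths sought among multiples of 3. This gave 25439 genes, with a median of 969 bases, and all of their values were whole within 0.01 reads, which the choice of lengths partly fixes. Intervals and floors cover counting error only.

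Values were tested as log2(RPKM + 1) with limma 3.58.1 in R 4.3.3 (lmFit, eBayes with trend), two-sided, with Benjamini-Hochberg adjustment over all genes that reached 1 RPKM in 2 or more of the 6 libraries, and called at an adjusted p under 0.05. Differences on this scale understate those of low genes. The main fit had line and root as terms, the organ fit line and organ, and the interaction fit line by root. The line names of the labels pair the libraries: the Zunla 1 minus HYL differences correlated across genes at r of 0.56 (root and stem), 0.45 (root and leaf) and 0.52 (stem and leaf). Permutation tests used SciPy 1.17.1. The fits and the recovery were tested on simulated data.

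The text names, for each contrast, the 2 rises and 2 falls of greatest size among called genes whose higher arm averaged 10 RPKM or more, with no overlap of the arms and the same direction in both lines. Lists by product name were void, because 0 of the 31426 IDs matched the gene table of the assembly UCD10Xv1.1. No sequences are shown for the same reason. The genes, lists and tests were chosen with earlier results of these data known. A planned count of genes called against both stem and leaf is not given, since the contrasts share the roots. Alternatives were another pseudocount, other filters, median-of-ratios scaling, no block, no trend, organ as a term, chiltepin leaf added, and each library left out. A lower filter for the fits without a root was added after the data were seen.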

Additional observations from a re-analysis of the deposited data

Results flagged for a closer look

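In the shoot libraries, Capana12g000266 was above 0 only in the HYL stem, at 0.269 RPKM. That library's gap to the nearest of the other 3 shoot libraries was the whole range of the 4 (a ratio of 1, past Dixon's critical value). With the other 3 libraries at 0, any value above 0 gives a ratio of 1, so the ties fixed this flag. It was 1 of 10 series of 4 values examined. The chance rate of about 1 in 20 groups does not cover tied values. The roots stood at 675 and 566 RPKM.

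One library of breaker fruit has HYL in its title and Zunla 1 in its other labels, and it was left out of all groups. In it, 50.6% of the root-high genes (398 of 786) reached 1 RPKM, above the highest share of 45.3% in any library with a group outside the contrast. Of the root-high genes, 19.2% were higher in it than in all 22 fruit libraries with a group, against 6.38% of all genes tested and 1.118% of the root-low genes. The ratio of its level to that in the HYL root, taken gene by gene over the root-high genes, had a median of 8.24%, and 21 of the 72 genes at 10 RPKM or more in both roots and under 1 RPKM in the shoot reached 1 RPKM. What sets this library apart was not tested.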

How the results depend on the processing

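Leaving out 1 library, with the planned filter, gave 0 to 2151 calls for root against shoot (0 to 1221 higher, 0 to 930 lower), 12 to 1014 for root against stem (6 to 531 higher, 6 to 564 lower) and 930 to 3565 for root against leaf (429 to 1900 higher, 501 to 1665 lower). Without a root, the planned filter and the lower one, added after the data were seen, gave different counts: 455 and 872 against 0 and 0 for stem, 1549 and 1940 against 0 and 0 for leaf, and 0 and 42 against 0 and 359 for root against shoot (306 higher, 53 lower in the last). The cause was not tested. Organ as a term gave 2744 calls (1419 higher, 1325 lower), and chiltepin leaf added with no block 924 (316 lower). A filter of 5 RPKM gave 509 higher. Against stem, no filter gave 563 (307 and 256), no replicate block 343 (175 and 168) and a pseudocount of 0.1 381 higher. Against leaf, no replicate block gave 1456 (713 and 743). For root against shoot the fit without the block gave 967. The interaction called 0 genes in all 8 alternatives run.

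The share of root-high genes under 1 RPKM in chiltepin leaf was 77.8% with no filter and 60.5% with a filter of 5 RPKM, and that under 1 RPKM in every library other than root was 27.1% with a pseudocount of 0.1, 27.2% with no filter and 11.2% with a filter of 5 RPKM. Root-low genes at least 2-fold lower after breaker were 45.7% with a pseudocount of 0.1. Genes chosen in Zunla 1 at that pseudocount kept their sign in HYL in 89.7% (higher, 47.2% at least 4-fold) and 88.1% (lower). Chosen in HYL, the shares were 94.5% and 56.4% for higher and 96.9% and 65.2% for lower genes. Within 3 ID numbers, 31.3% of root-high and 15.7% of root-low genes had a neighbour in the list, against 10.7% and 9.91% of all tested. No value of a named gene reversed, which their choice as the largest differences largely fixed. Of the alternatives that gave a test, 141 kept the call and 25, all with 1 library left out, lost it. Capana04g001405 and Capana12g000266 had no test without a root at the planned filter, and those fits are not counted. With 1 library per line and organ, small differences were not detectable.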
